A study of Homo sapiens with 4 samples.

Results

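The replication-dependent histone genes are the multicopy genes that encode the core histones H2A, H2B, H3 and H4 and the linker histone H1. They were taken by symbol from the gene annotation: H1-1 to H1-6, and every protein-coding symbol made of H2AC, H2BC, H3C or H4C and a number. The rule found 70 members among 19970 protein-coding genes on chromosomes 1 to 22 and X, namely 6 H1, 17 H2A, 19 H2B, 13 H3 and 15 H4 genes. Single-nucleus ATAC-seq, which marks open chromatin by where a transposase inserts, had been run on Panc1, an established human pancreatic ductal adenocarcinoma cell line, taken from transplanted mice. The 2 Inflachromene libraries came from mice 11 and 35, which had received inflachromene, a compound whose known binding partners are HMGB1 and HMGB2, high mobility group proteins of chromatin. The 2 Carrier libraries came from mice 12 and 31, which had received the carrier only. The sources used here do not give dose, duration, host strain or age. Such a graft is grown from 1 cell line and also holds cells of the mouse host, and host nuclei were not separated.

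Replication-dependent histone genes are switched on together as DNA synthesis begins, so that new histones are made as fast as new DNA. They have no introns as a rule, and their mRNAs end in a stem-loop in place of a poly(A) tail. Most lie in clusters and are transcribed in a nuclear compartment, the histone locus body, around the coactivator NPAT. H2A and H2B genes often stand head to head and share the stretch between their start sites. Replication-independent variants such as H3.3 and H2A.Z are made throughout the cell cycle from ordinary genes elsewhere.

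Here 55 members lay on chromosome 6 between positions 25726063 and 27893891 (GRCh38), 11 on chromosome 1 between 149782689 and 149887965, and H2AC25 and H2BC26 together on chromosome 1 at 228457364 to 228458558. H4C16 was alone on chromosome 12 and H2BC12L alone on chromosome 21. RefSeq (GRCh38.p14) gave start sites for 64 of the 70 members and not for H4C1, H4C3, H2AC12, H3C11, H3C12 and H2BC12L. The 250 bases before the start of 1 gene per family are shown, from regions whose values are given later, because the families differed in which short elements they carried, apart from H2A and H2B, which carried the same ones. Capitals mark every match to ATTTGCAT (the octamer, bound by POU2F1), CCAAT (bound by NF-Y), TATAAA (bound by TBP), AAACACA (known from H1 promoters) or GGTCCG (known from H4 promoters), searched on both strands. All sequences read 5′ to 3′ on the strand of the gene, and H2AC11 shares its stretch with H2BC11, which runs the other way.
H1-5 (chr6:27867589-27867838, minus strand): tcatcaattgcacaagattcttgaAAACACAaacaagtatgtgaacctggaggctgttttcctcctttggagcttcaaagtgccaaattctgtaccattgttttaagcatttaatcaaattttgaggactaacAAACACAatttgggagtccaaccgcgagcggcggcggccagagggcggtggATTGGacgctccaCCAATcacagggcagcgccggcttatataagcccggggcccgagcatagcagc
H2AC11 (chr6:27132793-27133042, plus strand): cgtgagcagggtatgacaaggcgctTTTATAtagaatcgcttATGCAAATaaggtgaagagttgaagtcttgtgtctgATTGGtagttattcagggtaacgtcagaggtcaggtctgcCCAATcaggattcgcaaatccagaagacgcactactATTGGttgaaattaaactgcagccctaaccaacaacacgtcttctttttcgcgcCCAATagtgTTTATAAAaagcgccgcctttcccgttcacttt
H2BC26 (chr1:228457853-228458102, plus strand): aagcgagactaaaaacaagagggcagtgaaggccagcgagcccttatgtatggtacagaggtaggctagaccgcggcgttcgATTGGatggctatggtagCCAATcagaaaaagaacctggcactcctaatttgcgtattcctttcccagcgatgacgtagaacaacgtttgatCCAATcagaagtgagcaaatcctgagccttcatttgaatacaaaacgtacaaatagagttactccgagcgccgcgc
H3C13 (chr1:149813694-149813943, minus strand): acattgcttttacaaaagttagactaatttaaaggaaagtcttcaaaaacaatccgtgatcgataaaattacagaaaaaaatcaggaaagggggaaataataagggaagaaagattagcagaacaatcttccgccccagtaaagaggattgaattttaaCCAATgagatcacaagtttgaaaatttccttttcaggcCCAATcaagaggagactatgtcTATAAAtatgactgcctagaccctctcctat
H4C8 (chr6:26285535-26285784, minus strand): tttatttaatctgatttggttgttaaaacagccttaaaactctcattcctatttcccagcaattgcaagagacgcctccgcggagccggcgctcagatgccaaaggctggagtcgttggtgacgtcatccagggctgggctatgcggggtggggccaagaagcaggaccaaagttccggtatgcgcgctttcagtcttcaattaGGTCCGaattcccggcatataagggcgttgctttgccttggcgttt

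**Figure D1:**
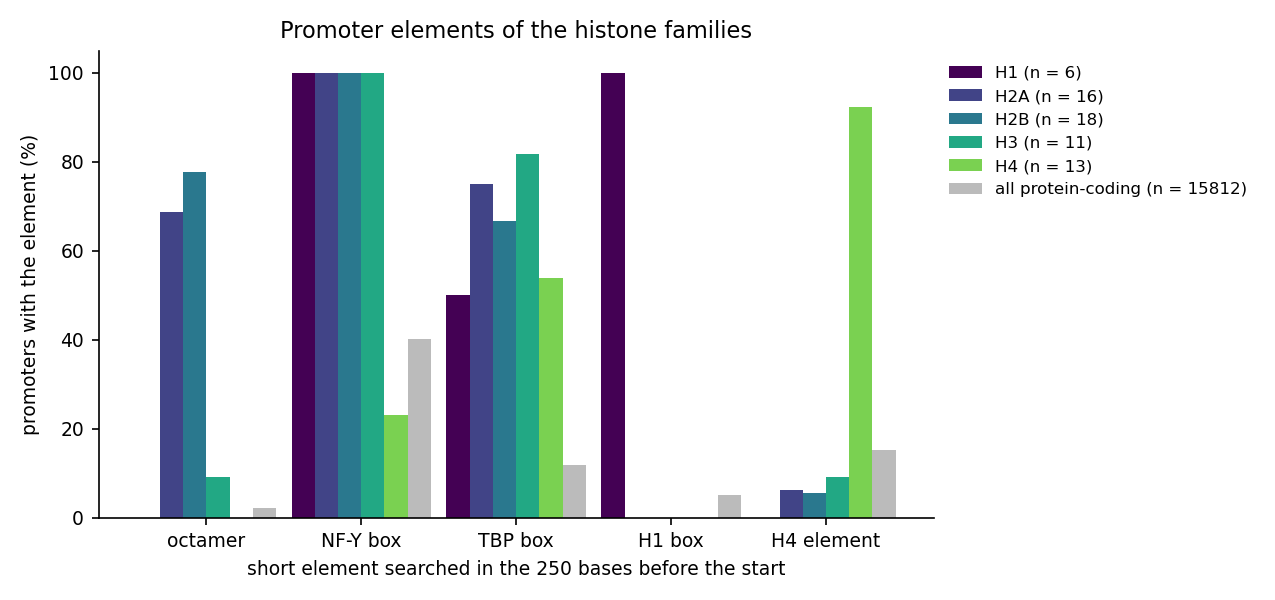
Share of promoters with each element in the 250 bases before the start (y axis, percent) for the 5 histone families and for all 15812 protein-coding genes with a known start. NF-Y box stands for CCAAT, TBP box for TATAAA, H1 box for AAACACA and H4 element for GGTCCG; all 6 H1 promoters held the H1 box and 12 of 13 H4 promoters the H4 element.

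The elements differed among H1, H3, H4 and the H2A and H2B genes, while H2A and H2B carried the same ones at similar shares. Where an H2A and an H2B gene stand head to head, both searches covered nearly the same stretch. Their similar shares are therefore in part the same sequences counted for both families. The octamer lay in 11 of 16 H2A and 14 of 18 H2B promoters, in 1 of 11 H3 promoters, and in no H1 or H4 promoter, against 2.16% of 15812 protein-coding promoters. The single H3 promoter with it is an upstream start of H3C4 that has the same 300 bases as the H2AC7 promoter. CCAAT was in all 6 H1, 16 H2A, 18 H2B and 11 H3 promoters but in 3 of 13 H4 promoters, against 40.2% of all. GGTCCG was in 12 of 13 H4 promoters and in 3 of the other 51, against 15.3% of all. AAACACA was in 6 of 6 H1 promoters and in no other member, against 5.05% of all. TATAAA was in 43 of 64 members, against 11.9% of all. Elements may overlap, as CCAAT and TATAAA nearly do in H2AC11, and a match describes letters only.

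Peaks had been called in each library separately, so overlapping peaks were merged, and a region that all 4 libraries supported with a peak is called a consensus region. Of 76 merged regions within 1 kb of a member, 61 were consensus regions, and these are the histone regions of the results that follow. Of the other 15 regions, 4 had a peak in 3 libraries, 7 in 2 and 4 in 1. Genome-wide, 50771 of 128195 merged regions were consensus regions. The libraries held 27088391 counts in 4067 barcodes (Inflachromene 11), 39947056 in 3276 (Inflachromene 35), 33336531 in 5186 (Carrier 12) and 29295799 in 2039 (Carrier 31). Histone regions took 57391, 73501, 65830 and 63678 counts in that order. Barcodes with fewer than 2000 counts, called shallow, numbered 2536, 1216, 3116 and 1100 and carried 1.74% to 4.37% of a library's counts.

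The libraries shared barcode sequences. Inflachromene 11 and Carrier 12 had 1209 in common, Carrier 12 and Carrier 31 had 357, Inflachromene 11 and Carrier 31 had 155, and the other pairs 25 to 29. Few of these were deep in both libraries of a pair (2 to 10). In Inflachromene 11, 1265 of the 2536 shallow barcodes were deep barcodes of another library, against 361 of 3116 in Carrier 12, 26 in Inflachromene 35 and 11 in Carrier 31. Such shallow barcodes held 0.0224% to 0.760% of a library's counts. Without them the share of counts in histone regions was 0.237% and 0.221% in Inflachromene 11 and 35, and 0.225% and 0.242% in Carrier 12 and 31, the same as with them at this precision. No barcode was left out elsewhere unless stated.

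As a check of the tissue label, all 5 carcinoma markers searched (KRT7, KRT8, KRT18, KRT19 and VIM) had a consensus region within 1 kb of the gene, at 17.2 to 59.5 CPM per kb at the strongest one. Of 4 pancreatic acinar markers only CELA3A did, at 4.38 CPM per kb, while PRSS1, CPA1 and CTRB1 had none. All 3 endothelial and all 4 leukocyte markers had one, at 7.56 to 25.1 and 2.71 to 44.1 CPM per kb, as did 2 of 4 fibroblast markers, at 17.4 and 76.6 CPM per kb. A region near a gene says little of the cell it came from, and the part of host cells in any result here was not tested.

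The first question was which histone genes were open. A consensus region lay within 1 kb of 57 of the 70 members (81.4%), against 74.9% of all protein-coding genes. By family these were 4 of 6 H1, 15 of 17 H2A, 17 of 19 H2B, 10 of 13 H3 and 11 of 15 H4 genes. The start site itself lay inside a consensus region for 49 of 64 members (76.6%), against 62.3% of 15812 protein-coding genes. It did so for 17 of 18 H2B, 13 of 16 H2A, 4 of 6 H1, 7 of 11 H3 and 8 of 13 H4 genes. Members are not independent of each other, since neighbours share regions.

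The 13 members without a consensus region fell into a few kinds. H2AC1, H2BC1 and H1-6 are the testis-specific H2A, H2B and H1 genes, and no library had a peak within 1 kb of any of them. H1-1, a somatic linker histone gene, H4C6, H4C7, H4C12, H3C8 and H2BC12L also had no peak in any library. The remaining 4 lay in the block on chromosome 1 that starts at 149782689: H4C14, H3C14 and H3C15 had no peak, and H2AC18 had a region with a peak in 3 libraries, with 128 and 258 counts in Inflachromene 11 and 35, and 105 counts in Carrier 31. Several of these genes have near-identical copies, whose reads an aligner may not be able to place. The promoter windows of H4C14 and H4C15 were identical over all 300 bases, those of H2AC18 and H2AC19 over 299 bases at an offset of 1, and those of H3C14 and H3C15 over 296 bases at an offset of 4. H4C11 and H4C12 matched at 295 of 300 bases (98.3%). Values of these 8 genes, present or absent, are therefore uncertain.

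The same promoter elements were found in genes with and without a region. H1-1 and H1-6 held the H1 element just as the 4 open H1 genes did. Among H2A and H2B genes, 23 of 25 with the octamer had their start in a consensus region and so did 7 of 9 without it. The median level of those start regions was 69.4 CPM per kb with the octamer and 64.4 CPM per kb without it, and the ranges overlapped (3.83 to 100.02 and 39.3 to 82.1). Head-to-head partners mostly share a region and nearly the same searched stretch, so these genes are not separate observations.

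**Figure D2:**
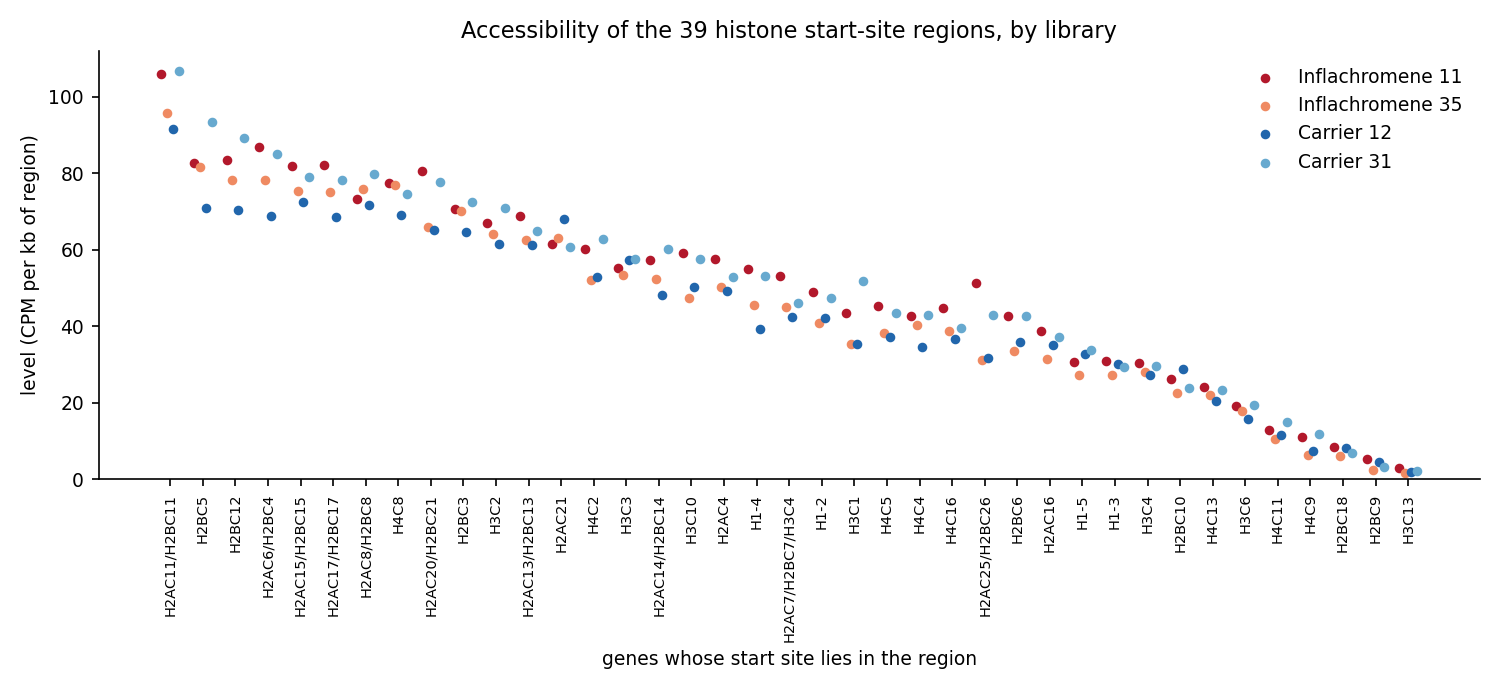
Level of the 39 histone regions that hold a member's start site (y axis, CPM per kb of region), ordered from high to low, with 1 point per library. H2AC11/H2BC11 is highest at a mean of 100.02 and H3C13 lowest at 2.16. The points of the 4 libraries lie near each other on this linear axis, but relative differences are larger at low regions such as H2BC9.

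Levels are given in counts scaled to a common total of consensus counts (CPM), and per kb of region where genes are compared. Start sites of H2B and H2A genes were the most open of the families, with medians of 69.4 and 64.4 CPM per kb over 17 and 13 regions. Regions shared by head-to-head genes were counted in both families. H3 start sites had a median of 44.1 (8 regions), H4 of 40.0 (8 regions) and H1 of 38.0 CPM per kb (4 regions). Across all 9492 start-site regions of protein-coding genes the median was 41.7 CPM per kb. Levels varied more among genes than among libraries, from 2.16 to 100.02 CPM per kb.

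The most open histone region held the start sites of both H2AC11 and H2BC11 (chr6:27132435-27133359). Its level was 106 and 95.8 CPM per kb in Inflachromene 11 and 35, and 91.7 and 107 CPM per kb in Carrier 12 and 31, so the groups overlapped. The mean, 100.02 CPM per kb, stood at the 95.05th percentile of start-site regions. The start of H2BC5 (chr6:26157608-26158524) followed with 82.6 and 81.7 CPM per kb under Inflachromene, and 70.8 and 93.4 CPM per kb under Carrier. That of H2BC12 (chr6:27146605-27147503) had 83.5 and 78.2 CPM per kb under Inflachromene, and 70.3 and 89.3 CPM per kb under Carrier. These 3 regions all encode canonical H2A or H2B, and none separated the groups.

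At the low end, the H3C13 start (chr1:149813177-149813965) had 2.95 and 1.60 CPM per kb under Inflachromene, and 1.97 and 2.13 CPM per kb under Carrier. H3C13 encodes H3.2 and belongs to the chromosome 1 block. The H2BC9 start (chr6:26251328-26252249) had 5.28 and 2.35 CPM per kb under Inflachromene, and 4.52 and 3.15 CPM per kb under Carrier. A region 959 bp before the H2AC19 start, also near H4C15, had 4.90 and 4.75 CPM per kb under Inflachromene, and 6.22 and 4.38 CPM per kb under Carrier. In all 3 the groups overlapped.

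Head-to-head pairs accounted for much of the upper range. Among the 64 members with a known start, start sites on opposite strands and at most 1000 bp apart formed 13 pairs. Of these, 11 joined an H2A to an H2B gene. The distance between the 2 starts ranged from 194 to 979 bp, with a median of 236 bp. The upstream start of H3C4 pairs with H2BC7 in the same region as H2AC7 does. In 11 of the 13 pairs a single consensus region held both starts; the exceptions were the testis-specific pair H2AC1 and H2BC1, and H3C7 and H2BC9, the pair 979 bp apart. The 10 regions with at least 2 member start sites had a median level of 73.8 CPM per kb, against 40.1 CPM per kb for the 29 regions with 1 start site and 28.4 CPM per kb for the 22 with none. H2AC12 has no known start and lies partly inside the H2BC12 start region, which therefore counts among the 29.

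The main comparison asked whether Inflachromene changed the accessibility of histone genes. No histone region passed the test, and none of all 50771 regions did (edgeR quasi-likelihood test with Benjamini-Hochberg adjustment, 0.0% called). DESeq2 called 0 histone regions and 28 regions genome-wide. With Inflachromene 11 left out, edgeR called 3180 regions genome-wide and 0 histone regions. In summed counts, fewer open nuclei and less opening per nucleus cannot be told apart. Among histone regions, 0 of 61 had an unadjusted p under 0.05 in either direction, against 3.04% of all regions higher and 1.44% lower. Log2 fold changes were above 0 in 29 regions and below 0 in 32, with a median of 0.00 and a range of -0.48 to 0.15. The median over all regions was 0.01 and over the 9492 start-site regions 0.05. Of the 61 intervals, 60 lay wholly between -1 and 1 and 40 wholly between -0.5 and 0.5 on the log2 scale, so changes over 2-fold were outside the 95% interval for all but 1 region. With 2 libraries per group smaller changes may go uncalled. In simulated counts 199 of 200 regions changed 3-fold were recovered, with 7 false calls, and 0 of 200 changed 1.5-fold. The simulation gave all regions the same dispersion and changed only regions above a minimum mean count. It therefore sets no exact limit for the real libraries.

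Both libraries of one group lay beyond both of the other in 9 histone regions, 2 higher and 7 lower under Inflachromene. Among all regions 14.0% were separated in the higher direction and 17.5% in the lower. Few peaks were present in one group alone. Of the 76 merged histone regions, 1, near H2BC21 and H2AC20 (chr1:149885283-149885943), had a peak in both Inflachromene libraries and neither Carrier library, against 3.64% of all merged regions. Another, near H2BC26 (chr1:228459040-228459956), had a peak in both Carrier libraries and neither Inflachromene library, against 1.60% of all merged regions. These shares describe peak calls, which also move with depth.

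**Figure D3:**
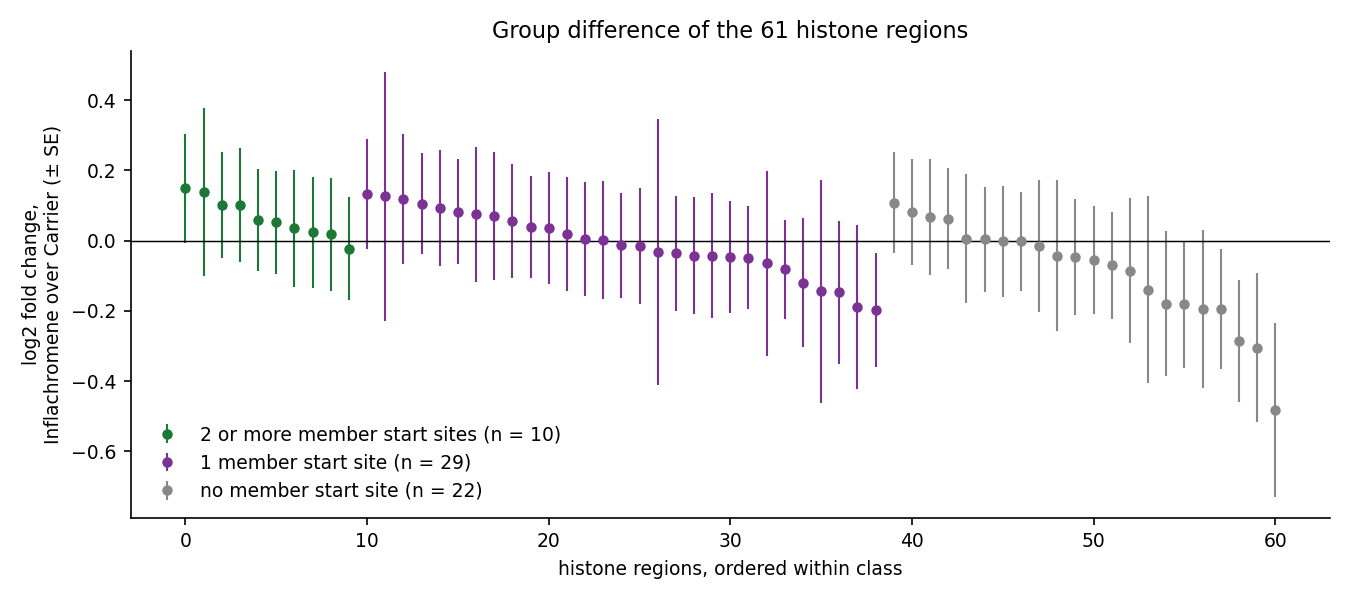
Log2 fold change of each of the 61 histone regions, Inflachromene over Carrier (y axis; bars are the standard error), ordered within 3 classes by the number of member start sites in the region. Values run from -0.48 to 0.15; 9 of 10 regions with at least 2 start sites and 6 of 22 with none lie above 0, and none passed the test.

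Among values below 0, the smallest p belonged to a region centred 1389 bp downstream of the start of H2BC10, a canonical H2B gene. It had 5.63 and 7.71 CPM in Inflachromene 11 and 35, and 8.54 and 10.2 CPM in Carrier 12 and 31, without overlap. Its log2 fold change was -0.48 (standard error 0.25, edgeR unadjusted p = 0.0810). The H2BC10 start site itself had a log2 fold change of -0.12 (standard error 0.18).

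The other 4 regions by smallest p on that side had small differences too. A region 1113 bp past the start of H4C16, the lone H4 gene of chromosome 12, had 18.1 and 17.9 CPM under Inflachromene, and 21.3 and 22.6 CPM under Carrier (log2 fold change -0.28, standard error 0.17). A region near H4C15, upstream of H2AC18, had 11.9 and 9.43 CPM under Inflachromene, and 13.1 and 13.3 CPM under Carrier (-0.30, standard error 0.21). The H1-5 start, of a somatic linker histone, had 26.6 and 23.7 CPM under Inflachromene, and 28.5 and 29.3 CPM under Carrier (-0.20, standard error 0.16). In each of these the 2 Inflachromene libraries were below both Carrier libraries. A region 1953 bp past the H2AC6 start had 19.9 and 18.6 CPM under Inflachromene, and 21.9 and 22.1 CPM under Carrier (-0.19, standard error 0.17), again without overlap.

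Among values above 0, the H2AC7, H2BC7 and H3C4 start region came first by p. It had 49.1 and 41.7 CPM under Inflachromene, and 39.3 and 42.5 CPM under Carrier, with overlap (log2 fold change 0.15, standard error 0.16). The H4C16 start had 40.4 and 35.1 CPM under Inflachromene, and 33.1 and 35.8 CPM under Carrier (0.13, standard error 0.16), while its downstream region, above, lay on the other side of 0. The H4C8 start had 72.4 and 71.8 CPM under Inflachromene, and 64.5 and 69.6 CPM under Carrier, without overlap (0.11, standard error 0.14). A region near H3C11 and H4C13 had 43.1 and 44.6 CPM under Inflachromene, and 40.6 and 40.7 CPM under Carrier, also without overlap (0.11, standard error 0.14). The H2AC17 and H2BC17 start region had 77.1 and 70.4 CPM under Inflachromene, and 64.2 and 73.3 CPM under Carrier (0.10, standard error 0.15). All 10 of these named regions had an edgeR adjusted p of 0.9996.

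Fold changes were ordered by promoter class, within a narrow range. Regions with at least 2 start sites were above 0 in 9 of 10 cases (mean 0.07, median 0.06). Those with 1 start site were above 0 in 14 of 29 (mean -0.01, median -0.01), and those with none in 6 of 22 (mean -0.09, median -0.05). The count of 9 of 10 was carried by single libraries: without Inflachromene 11 it was 4 of 10, and without Carrier 12 it was 3 of 10. Start-site regions genome-wide were above 0 in 6363 of 9492 cases. Consensus regions without a start site were above 0 in 19907 of 41279 cases (48.2%), and on chromosome 6 in 1225 of 2772 (44.2%). By family, values at start sites were above 0 in 10 of 13 H2A, 12 of 17 H2B, 4 of 8 H3, 5 of 8 H4 and 2 of 4 H1 regions. A region that holds starts of several families was counted in each, so the H2A and H2B counts are largely of the same regions.

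Histone levels were highest in 1 library of each group. Inflachromene 11 was the highest library in 27 of 61 histone regions and Carrier 31 in another 27. Of all 9492 start-site regions, Inflachromene 11 was highest in 60.8% and Carrier 31 in 24.7%, against 44.3% each of the histone regions. Inflachromene 35 was the lowest in 27 histone regions and Carrier 12 in 28. Inflachromene 35 and Carrier 12 were lowest in 36.7% and 50.4% of all start-site regions. The share of a library's counts at start sites moved with this, being 44.9% in Inflachromene 11 and 40.7% in Inflachromene 35, and 40.8% in Carrier 12 and 43.8% in Carrier 31. The share in histone regions was 0.229% ± 0.0110 under Inflachromene and 0.233% ± 0.0122 under Carrier (SD, n = 2 each), a difference smaller than either SD. Its part in the histone values was not tested.

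The chromosome 6 regions that lie between histone genes but belong to none of them were mostly lower under Inflachromene. There were 133 of them, among them the starts of HFE, TRIM38, ABT1 and several butyrophilin and zinc finger genes. They took 0.310% and 0.288% of counts under Inflachromene, and 0.345% and 0.363% under Carrier, without overlap. Of the 133, 121 had a log2 fold change below 0 (median -0.23). An edgeR unadjusted p under 0.05 was found in 27, all lower, against 1.44% of all regions. In the lower direction 84 were separated, against 17.5% of all regions. Of 2772 regions without a start site on chromosome 6, 92 had such a p on the lower side and 677 were separated lower. That set includes 123 of the 133, which gave 27 of the 92 and 82 of the 677. None of the 133 passed the adjusted test. The 10 of them with a start site had a median of -0.02, and the 123 without had -0.24, against -0.04 for such regions on chromosome 6 as a whole. The median stayed between -0.30 and -0.18 when any library was left out. The 51 histone regions on chromosome 6 had a median of 0.00. The groups of regions are set side by side without a test of their difference.

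**Figure D4:**
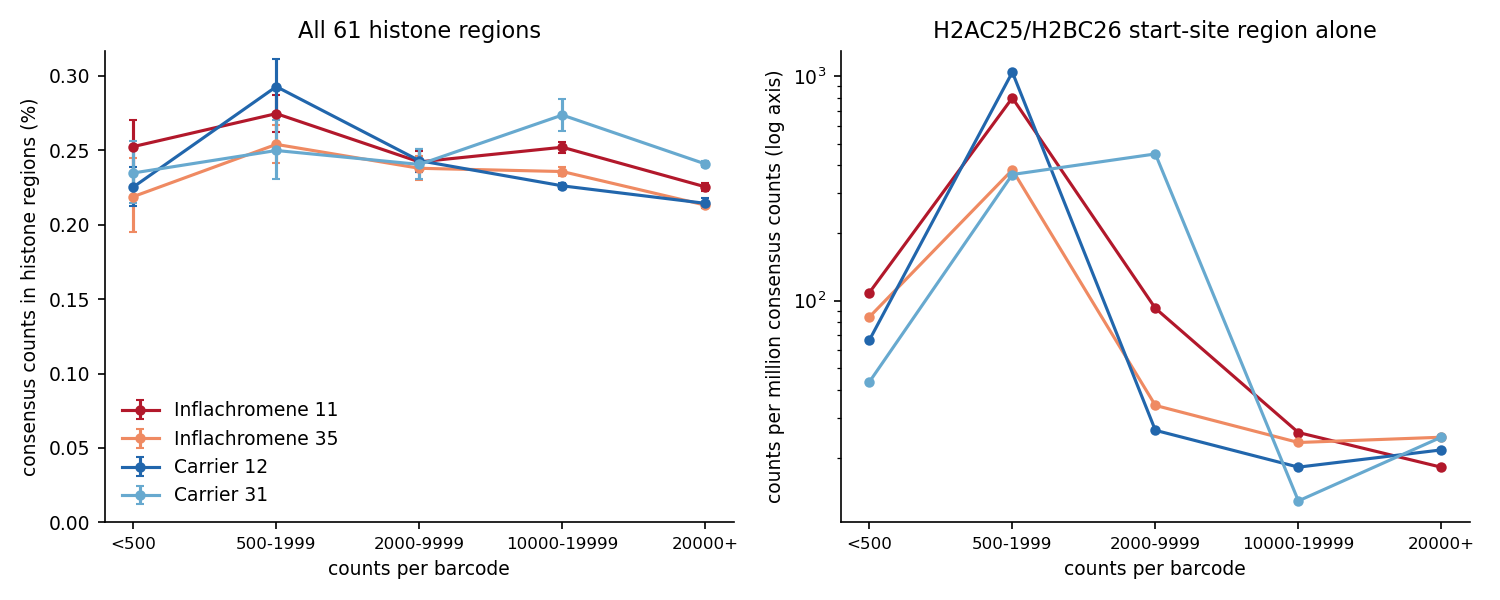
Left, share of consensus counts in the 61 histone regions (percent) by counts per barcode. Bars are exact 95% binomial intervals that treat each count as separate and are too narrow. Right, CPM of consensus counts in the H2AC25/H2BC26 region alone on a log axis; it reaches 1041 in Carrier 12 and 800 in Inflachromene 11 among barcodes of 500 to under 2000 counts, against 18.1 to 24.7 in barcodes of 20000 and over.

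Accessibility of histone genes was then followed by barcode depth. Shallow barcodes held 1.14 and 1.12 times the histone share of deep barcodes in Inflachromene 11 and 35, and 1.13 and 1.00 times in Carrier 12 and 31 (mean 1.10 ± 0.0624, SD over 4 libraries). All start-site regions gave a mean of 1.12, and the 133 neighbours 0.683. The histone share peaked at 500 to under 2000 counts per barcode in 3 libraries, at 0.275% in Inflachromene 11, 0.254% in Inflachromene 35 and 0.293% in Carrier 12. In Carrier 31 it was 0.250% in that bin and highest at 10000 to under 20000 counts, at 0.274%. Leaving out shallow barcodes that were deep in another library gave a mean ratio of 1.10 again.

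The excess rested on a single region. The H2AC25/H2BC26 start region (chr1:228457201-228458201), which serves a head-to-head H2A and H2B pair away from the main clusters, held 598 and 237 shallow counts in Inflachromene 11 and 35, and 405 and 100 in Carrier 12 and 31. That was 21.8% and 13.1% of all shallow histone counts under Inflachromene, and 18.2% and 9.001% under Carrier, but 0.873% to 1.64% of deep histone counts. Over the libraries, 1340 shallow counts stood against 80.5 expected from deep barcodes, a ratio of 16.6 (95% interval 15.8 to 17.6). The interval is too narrow, since it treats each count as separate, though the 1340 came from 492 barcodes. It also takes the expected count as fixed. Without this region the shallow over deep ratio was 0.8997 and 0.984 under Inflachromene, and 0.931 and 0.929 under Carrier, below 1 in all 4 libraries. This exclusion was chosen after the values were seen.

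The H2AC25/H2BC26 signal was spread over many barcodes. Among those of 500 to under 2000 counts, 195 of 706 in Inflachromene 11 held a count there (27.6%, exact 95% interval 24.4 to 31.1). In Inflachromene 35 it was 87 of 618 (14.1%, 11.4 to 17.1), in Carrier 12 132 of 403 (32.8%, 28.2 to 37.6) and in Carrier 31 34 of 263 (12.9%, 9.12 to 17.6). In Carrier 31 the region also stood out at 2000 to under 10000 counts, in 101 of 255 barcodes (39.6%), which the limit of 2000 counts places among deep barcodes. The most open histone region, H2AC11/H2BC11, had a count in fewer barcodes of 500 to under 2000 counts, namely 24 of 706 (3.40%) and 30 of 618 (4.85%) in Inflachromene 11 and 35, and 1 of 403 (0.248%) and 9 of 263 (3.42%) in Carrier 12 and 31. Its shallow over deep ratio was 0.632 and 1.34 under Inflachromene, and 0.760 and 0.844 under Carrier, so it was above 1 in Inflachromene 35. No single barcode held more than 16 counts at H2AC25/H2BC26.

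**Figure D5:**
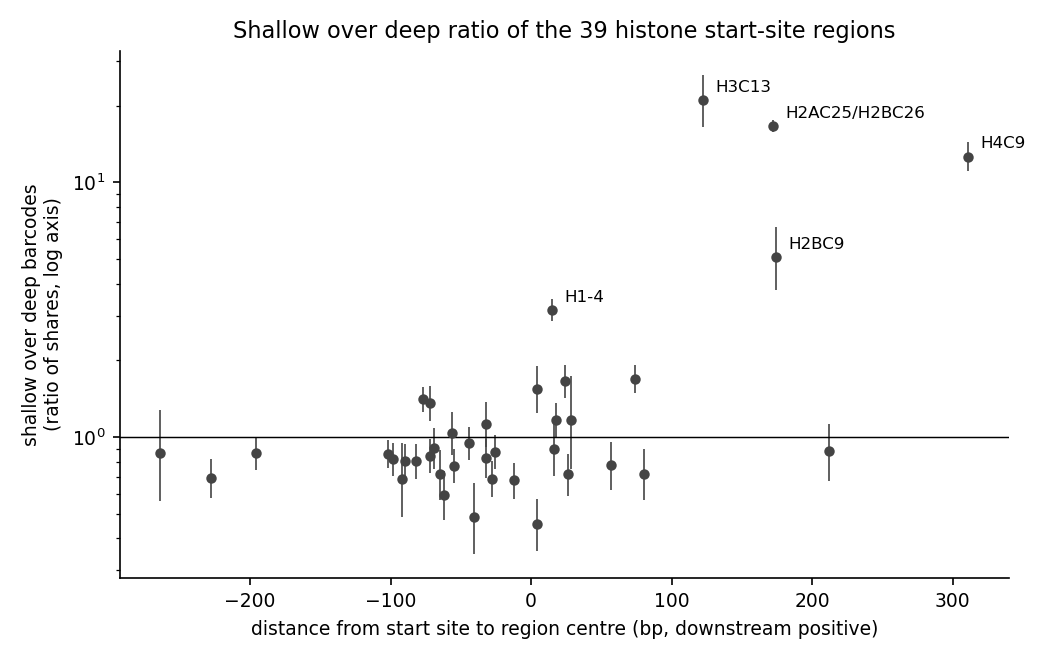
Share of counts in shallow over deep barcodes (y axis, log scale) for the 39 histone start-site regions. The x axis is the distance from the nearest member start site to the centre of the region (bp). Bars are 95% intervals that treat each count as separate and are too narrow. H3C13, H2AC25/H2BC26, H4C9, H2BC9 and H1-4 lie above 3, and 4 of these 5 have their centre at least 100 bp downstream of the nearest start. The limits of 3 and 100 bp were not set beforehand.

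Region by region, 47 of the 61 histone regions had a ratio below 1, 9 lay between 1 and 3, and 5 above 3, with a median of 0.807. Over the 35 histone start-site regions with at least 50 shallow counts the median was 0.874 and 22 were below 1 (62.9%). The 7975 start-site regions of protein-coding genes with that many shallow counts had a median of 0.949, and 4343 were below 1 (54.5%). H3C13 had the highest ratio, 21.0 (72 shallow counts against 3.43 expected), and H4C9 had 12.6 (230 against 18.2). H2BC9 with 5.08 (51 against 10.0) and H1-4, a somatic linker histone gene, with 3.15 (383 against 122) were named after their values were seen. These and H2AC25/H2BC26 made up the 5 above 3, which was 14.3% of the 35, where 4.04% of the 7975 start-site regions were above 3. The limit of 3 was not set beforehand.

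The ratio was above 3 in every library at H2AC25/H2BC26 (22.05 and 13.2 under Inflachromene, and 23.5 and 5.51 under Carrier), at H3C13 (15.1 to 59.3) and at H4C9 (7.98 to 16.5). At H2BC9 it was 8.71 and 4.79 under Inflachromene, and 2.78 and 1.53 under Carrier, the last from 2 counts in 1 barcode. At H1-4 it was 3.43 and 2.63 under Inflachromene, and 3.53 and 2.73 under Carrier. At H4C9, shallow counts were 86 and 42 under Inflachromene, and 68 and 34 under Carrier. At H3C13 they were 22 and 24 under Inflachromene, and 16 and 10 under Carrier. At the other end, the H2AC14/H2BC14 start region had a ratio of 0.455 (73 against 160 expected), the region past H2BC10 0.373 and the region before H2AC19 0.344, the last 2 from 9 and 5 shallow counts.

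The regions with high ratios also sat differently on their genes. The centre was placed against the nearest member start. It lay 122 bp downstream of the start at H3C13, 174 bp at H2BC9 and 311 bp at H4C9. At H2AC25/H2BC26 it lay 172 bp downstream of the H2AC25 start, but upstream of the H2BC26 start, which is farther away. Of 5 start-site regions centred at least 100 bp downstream of the nearest start, 4 had a ratio above 3, and of the other 34 only H1-4 did. The fifth, H2BC10, was centred at 212 bp with a ratio of 0.879. Neither the limit of 100 bp nor that of 3 was set beforehand, and the split was not tested. Downstream of the start these intronless genes are mostly coding sequence.

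Counts at several of these regions were compared within barcodes. Among barcodes of 500 to under 2000 counts with a count at H2AC25/H2BC26, H1-4 also had one in 13.8% and 16.1% under Inflachromene, and in 13.6% and 26.5% under Carrier. Among barcodes of that bin without a count at H2AC25/H2BC26 it was 6.85% and 4.52% under Inflachromene, and 8.12% and 4.37% under Carrier. For H4C9 the shares were 7.69% and 13.8% with against 3.33% and 1.32% without under Inflachromene, and 10.6% and 14.7% with against 4.80% and 3.93% without under Carrier. Barcodes with a count at H2AC25/H2BC26 were deeper, with medians of 1465 and 1361 counts against 971 and 1006 under Inflachromene, and 1034 and 1345 against 837 and 906 under Carrier. For H2AC11/H2BC11 the shares were 3.08% and 1.15% with against 3.52% and 5.46% without under Inflachromene. The 1.15% in Inflachromene 35 was 1 of 87 barcodes. Under Carrier the shares were 0.0% in both libraries with, against 0.369% and 3.93% without. The zeros were 0 of 132, which allows up to 2.27%, and 0 of 34, which allows up to 8.82%. Differences between barcodes with and without a count at H2AC25/H2BC26 were not tested. No mouse genome was used here. Counts from host nuclei at H2AC25/H2BC26, H3C13, H4C9, H2BC9 and H1-4 therefore cannot be told apart from those of the graft, and whether these values are human histone accessibility was not tested.

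Among the regions of low level, H3C13 had 72 counts in shallow and 116 in deep barcodes. H4C9 had 11.04 and 6.41 CPM per kb under Inflachromene, and 7.45 and 11.8 CPM per kb under Carrier, with 230 counts in shallow and 669 in deep barcodes, although shallow barcodes carried at most 4.37% of any library. The group test of histone regions on deep barcodes alone called 0 of 61, with a median log2 fold change of -0.01.

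The genes that regulate and serve histone supply were examined beside the members, at their own start sites. For transcription and 3′ processing of histone mRNA, 15 of 20 genes had a start-site region and 0 passed the test, with 10 above 0 and a median log2 fold change of 0.09. The smallest p was that of CPSF3, the endonuclease that cuts histone pre-mRNA, with 67.3 and 59.8 CPM under Inflachromene, and 47.9 and 57.4 CPM under Carrier (log2 fold change 0.27, standard error 0.16). CSTF2 had -0.18, and YY1 and E2F1, both transcription factors, had 0.18 and 0.15.

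For histone chaperones and supply, 18 of 20 genes had a start-site region, 0 passed, 15 were above 0 and the median was 0.08. HIRA, a chaperone of H3.3, had 56.4 and 37.6 CPM under Inflachromene, and 37.2 and 36.2 CPM under Carrier (0.35, standard error 0.20), the difference resting on Inflachromene 11. NAP1L4, a chaperone of H2A and H2B, had 0.29, CABIN1 of the HIRA complex 0.21 and SUPT16H, a subunit of FACT, 0.15. Among 16 replication-independent histone genes, 10 had a start-site region, 0 passed, 6 were above 0 and the median was 0.02. H2AX, the damage-responsive H2A variant, had 116 and 93.8 CPM under Inflachromene, and 80.1 and 97.8 CPM under Carrier, with overlap (0.24, standard error 0.17). MACROH2A2 had -0.14, CENPA of the centromere 0.11 and H2AZ2 -0.09. Medians of 0.02 to 0.09 stood beside 0.05 for all start-site regions. The replication-independent start regions had a median level of 61.3 CPM per kb, and the 39 histone start-site regions 46.7 CPM per kb.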

How the data were processed

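Members, lists and tests were chosen with earlier results of these data known. Per the file headers and the submitters' processing notes, peaks and matrices were made with Cell Ranger ATAC 2.1.0 on GRCh38 (Cell Ranger ARC is also named; its role is not given in the sources used here). The deposited matrices hold raw counts per peak and barcode, with peaks called per library. Of the entries, 82.4% to 84.9% are even, as when both ends of a fragment are counted, so 2 counts are often 1 molecule. Intervals on shares and ratios of counts treat each count as separate and leave out the spread among mice. They are therefore too narrow even for counting error. Those on ratios also take the expected count as fixed. Intervals on shares of barcodes cover counting error only. Doublets were not called.

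Peaks overlapping by at least 1 bp were merged, and regions with a peak in all 4 libraries kept. Counts of a library's own peaks were added up per region over all barcodes, since the mouse is the replicate, and tested with edgeR 4.0.16 in R 4.3.3 (TMM factors 0.975 to 1.03, filterByExpr, which removed 0 regions, quasi-likelihood F test, Benjamini-Hochberg over 50771 regions, threshold 0.05). DESeq2 1.42.0, other normalizations, filters, windows, merges, depth limits and left-out libraries were the alternatives. CPM are scaled to TMM-adjusted consensus totals; levels per kb use the width of the region. The expected shallow count of a region is its share of deep counts in each library times that library's shallow total, summed. Start sites, promoters and names came from RefSeq (GRCh38.p14), which covered 15812 protein-coding genes; motifs were searched in the 250 bases before the start. Named regions are, per direction, the 5 with the smallest p, then the 3 highest and 3 lowest levels and shallow over deep ratios, and up to 4 genes per other list by p. The pipeline was tested on simulated counts.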

Additional observations from a re-analysis of the deposited data

How the results depend on the processing

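No histone region was called under any alternative tried. The number of regions called genome-wide was 0 with edgeR on all libraries, 28 with DESeq2, and between 0 and 3180 with 1 library left out: 3180 without Inflachromene 11, 299 without Inflachromene 35, 5 without Carrier 31 and 0 without Carrier 12. In those fits 1 group has a single library, assumed to vary like the other group, and the lowest adjusted p of a histone region was 0.213. The median log2 fold change of histone regions lay between -0.07 and 0.09, changing sign with the library left out, and the difference in histone share between groups changed sign too (-0.0130 to 0.00433 percentage points). The 10 named fold changes kept their sign in 120 of 120 comparisons. Those regions were picked by smallest p in the same libraries that every comparison reuses, so the kept sign is no independent support. With 1 library left out, 7 of the 10 moved by over 1.5 times. H2AC7/H2BC7/H3C4 gave 0.03 without Inflachromene 11 and 0.25 without Inflachromene 35, and the H4C16 start 0.03 and 0.22. H2AC17/H2BC17 gave 0.01 without Carrier 12 and 0.20 without Carrier 31, and H4C8 0.06 and 0.16. The region past H2BC10 gave -0.28 without Inflachromene 11 and -0.74 without Inflachromene 35, that near H4C15 -0.48 and -0.15, and the H1-5 start -0.28 and -0.13. The count of genes with a consensus region ran from 55 to 66 of 70 across windows of up to 5 kb and peak rules. The shallow over deep ratio, 1.10, lay between 1.06 and 1.11 under other depth limits, with each barcode counted once, and without the region of most counts and was 0.936 without the H2AC25/H2BC26 region, an alternative chosen after seeing the data, as was leaving out shallow barcodes that are deep elsewhere (1.10). No paired analysis was possible because the groups share no mouse number. With 2 mice per group, p-values rest on the spread within both groups of 2 libraries, moderated by the spread over all regions.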
